A study of Drosophila melanogaster with 10 samples.

Results

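The cytoplasmic ribosomal protein genes were followed in OSC, a cell line grown from the somatic part of the Drosophila ovary, after depletion of 5 proteins of transposon silencing. Members were taken by name, as every gene whose symbol starts with RpL or RpS and a digit. Genes on chromosome 4 and RpL5, RpL15 and RpL38 were left out by the same rule, and mitochondrial ribosomal protein genes carry another prefix. The rule found 81 of 13984 genes, and 76 of them, 43 of the large (60S) and 33 of the small (40S) subunit, had a mean of at least 1 RPKM (reads scaled by transcript length and library total) over the 6 RNA libraries. Poly(A) RNA was measured 2 days after 1 transfection with siRNAs against Mael, HP1a, CG3893, Piwi or Armi, and in a control that received an siRNA against EGFP, a gene that flies lack. All groups are cultures of the same line with no drug and no mutation stated in the labels, and siRNA lowers a target without removing it. Each group held 1 library, so no difference below has a replicate check, no test was run, and every comparison with the control divides by the same library.

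A ribosome holds 1 copy of nearly every ribosomal protein, and their messenger RNAs are among the most abundant in growing cells. Their genes are spread over the genome, are transcribed at high rates in concert, and in animals their messages are translated under control of the TOR growth pathway. Flies with a reduced dose of a single ribosomal protein gene grow slowly and have thin bristles, the Minute phenotype. Piwi, Armi, Mael and CG3893 (a zinc finger protein) act in the piRNA pathway, which silences transposons in these cells, and HP1a is a heterochromatin protein.

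Recovered from the transposon values, depth ran between 18584526 reads (HP1a) and 36729626 reads (Piwi), with 33872728 in the control library. The targeted RNA stood at 10.3% of control for mael, 30.2% for the HP1a gene, 48.4% for CG3893, 30.1% for piwi and 35.9% for armi, each in its own knock-down. Of 7 markers of the ovarian soma 1 is piwi, itself a target; the other 6 summed to between 639 and 747 RPKM in the knock-down libraries, against 607 RPKM in the control. HP1a stood apart among them, with Fas3 at 107.9 RPKM against 41.5 in the control, LamC at 101.4 against 52.4 and tj at 150.9 against 194.8, and the part of this in the members' lower values in HP1a was not tested. Germline markers summed to at most 12.8 RPKM, in HP1a, with nos at or below 0.06 RPKM in every library. Hemocyte, muscle and neuron markers summed to at most 13.1 RPKM each, and fat body markers to at most 0.24 RPKM. In bulk RNA, fewer cells of a type and less RNA per cell cannot be told apart, and an RPKM value is a share of its library, not an amount per cell.

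The 81 genes of the rule together stood lower in every knock-down library than in the control library. Their summed level was 155894 RPKM in Mael, 164742 in HP1a, 175227 in CG3893, 179580 in Piwi and 185038 in Armi, against 202738 RPKM in the control. That is 76.9% of control in Mael, 81.3% in HP1a, 86.4% in CG3893, 88.6% in Piwi and 91.3% in Armi. The summed level of all other genes was also lower, at 91.4%, 90.3%, 96.6%, 95.4% and 97.8% of control in the same order. As a share of the RPKM of all genes, the members made up 27.5% in Mael, 28.8% in HP1a, 28.7% in CG3893, 29.5% in Piwi and 29.6% in Armi, against 31.0% in the control. Summed transposon RPKM went the other way, with 19889 in Mael, 21968 in HP1a, 16530 in CG3893, 17884 in Piwi and 15437 in Armi, against 13631 in the control, and its part in the lower gene levels was not tested. In each library 67 of the 100 genes with the highest RPKM were members.

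**Figure D1:**
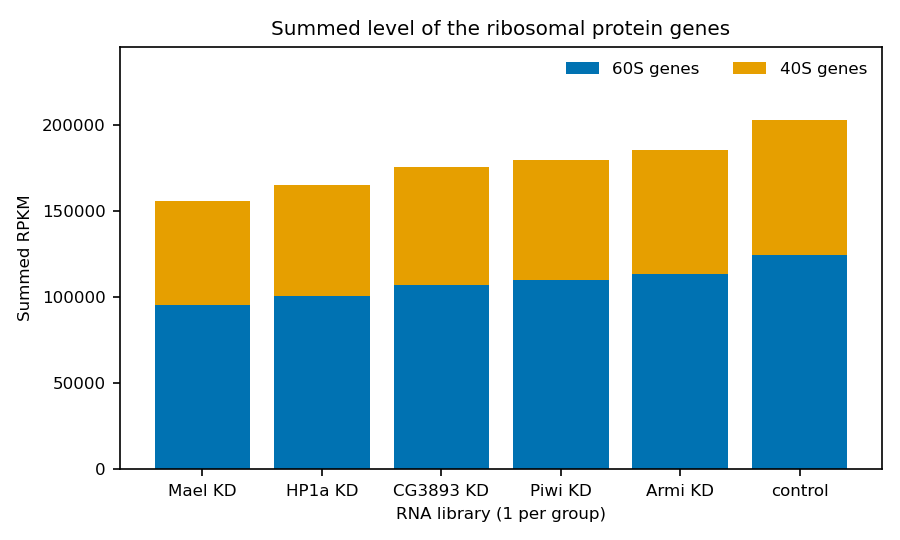
Summed RPKM (y axis) of the 43 genes of the 60S and 33 genes of the 40S subunit in each of the 6 RNA libraries (x axis, 1 library per group). The control bar is the tallest and the Mael bar the shortest, and the 60S part makes up between 61.0% and 61.3% of each bar. Over all 81 genes of the rule, low ones included, these libraries sum to 202738 and 155894 RPKM.

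Single members moved by little and spread less than all genes did. Computed on RPKM + 1, the members' median log2 change from control was -0.36 in Mael, -0.30 in HP1a, -0.20 in CG3893, -0.18 in Piwi and -0.12 in Armi. Over all 7690 expressed genes (mean of 1 RPKM or more) the medians were -0.05, -0.08, -0.02, -0.04 and -0.03 in the same order. The members' interquartile range was 0.15 log2 units in Mael, 0.12 in HP1a, 0.15 in CG3893, 0.09 in Piwi and 0.07 in Armi. For all genes it was 0.28, 0.39, 0.18, 0.19 and 0.16. For the 30 other genes of like level and locus length described below it was 0.25 in Mael, 0.25 in HP1a, 0.14 in CG3893, 0.14 in Piwi and 0.10 in Armi. Against these genes the members' range was narrower in Mael, HP1a, Piwi and Armi, but not in CG3893.

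In Mael all 76 members were lower than in the control, as were 60.2% of all genes. The corresponding counts were 75 in HP1a (60.7% of all genes), 76 in CG3893 (54.4%), 75 in Piwi (61.2%) and 74 in Armi (59%). In place of a test, a fixed size limit marked larger differences, a ratio of 5 to 4 in either direction or 0.32 on the log2(RPKM + 1) scale. In Mael 45 members were past this limit on the lower side, against 12.9% of all genes, and in HP1a 30 members were, against 19.2%. In CG3893 7 members were past it, against 2.67% of all genes, and 1 against 1.64% once each library was scaled to the same summed RPKM over genes with a locus of at least 400 bases. In Piwi the count was 1 (6.35%) and in Armi 2 (4.08%), so the share of members past it lay below the share of all genes there. On the higher side 0 members were past the limit in Mael (7.07% of all genes), CG3893 (5.16%), Piwi (5.19%) and Armi (5.02%), and 1 in HP1a (12.3%), RpS10a. Past 2-fold, 0 members were lower or higher in any of the 5 knock-downs. The shares of all genes past 2-fold lower were 0.806% in Mael, 1.9% in HP1a, 0.377% in CG3893, 0.468% in Piwi and 0.429% in Armi, and past 2-fold higher 2.42%, 3.85%, 1.01%, 1.56% and 0.975%.

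Other abundant genes with short loci were lower as well. Among 30 such genes, with a mean of at least 500 RPKM and a locus of 700 to 2700 bases, the median log2 change was -0.32 in Mael, -0.29 in HP1a, -0.13 in CG3893, -0.13 in Piwi and -0.07 in Armi. The 62 members of the same level and locus length had medians of -0.35, -0.30, -0.20, -0.18 and -0.12. Past the size limit on the lower side were 14 of the 30 other genes in Mael and 14 in HP1a, against 12.9% and 19.2% of all genes. By locus length alone, non-member genes of 700 to 1200 bases had a median of -0.14 in Mael and -0.14 in HP1a, and those of 2700 bases and more -0.01 and -0.03. Under 700 bases the medians were -0.12 and -0.09, so they did not shift steadily with length. By mean level alone, 84 non-member genes of 500 RPKM and more had -0.23 and -0.25, and those of 1 to 20 RPKM -0.003 and -0.01. Non-members here include ribosomal protein genes outside the naming rule. Without these, 73 genes of 500 RPKM and more had -0.22 in Mael and -0.22 in HP1a. The change thus differed with level and with locus length, and their part in the members' lower values was not tested. Scaling each library to that same summed RPKM raised levels by 0.20 log2 units in Mael and 0.19 in HP1a. Past the size limit on the lower side were then 8 members in Mael, against 4.34% of all genes, and 2 in HP1a, against 8.35%. Under that scaling 68 of the 76 members were below the control in Mael (26.4% of all genes), 67 in HP1a (35.9%), 64 in CG3893 (27.5%), 66 in Piwi (33.5%) and 63 in Armi (38.9%).

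**Figure D2:**
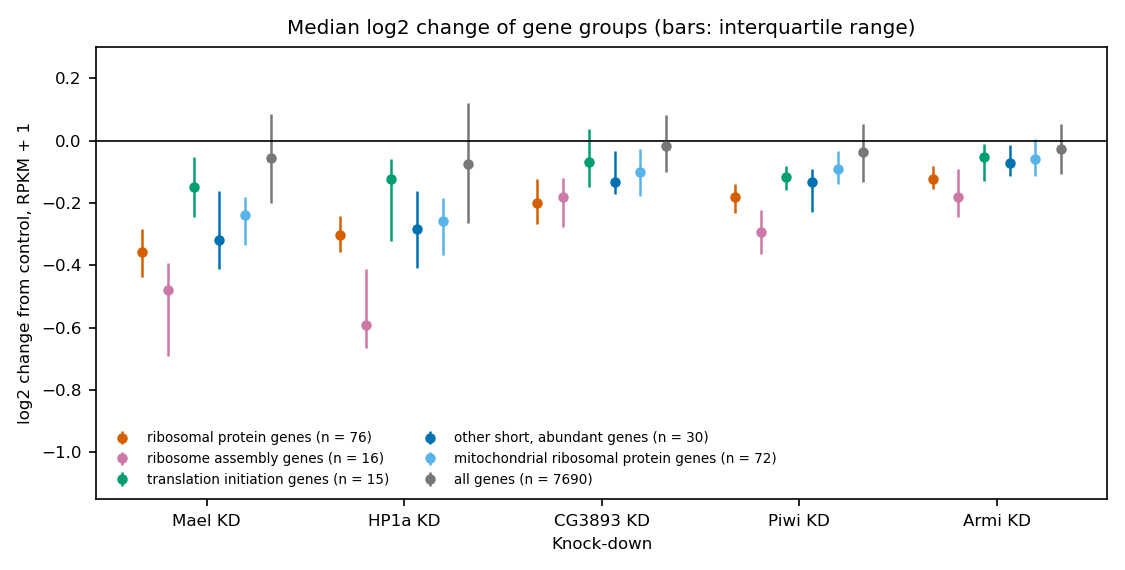
Median log2 change from control on RPKM + 1 (y axis) of 6 gene groups in each knock-down (x axis). Points are medians and bars span the interquartile range. The ribosomal protein genes lie below all genes in each knock-down, close to other short, abundant genes in Mael (-0.36 against -0.32) and HP1a (-0.30 against -0.29), and above the ribosome assembly genes except in CG3893 (-0.20 against -0.18).

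Most members shared the same highest and the same lowest library. The control library held the highest of the 6 values for 73 of the 76 members, against 31.4% of all genes. The exceptions were RpL29, highest in Piwi (8.28% of all genes), RpS19b, highest in Armi (10.5%), and RpS10a, highest in HP1a (24.1%). The Mael library held the lowest value for 62 members, against 18.6% of all genes. HP1a was lowest for 13 (37%), Armi for 1 (11.1%), and CG3893 (6.53%), Piwi (10.6%) and the control (16.3%) for 0. Knock-downs were also set against each other, which leaves the control library out. Mael was lower than Piwi for 73 members (56.7% of all genes), with a median log2 difference of -0.19, and lower than Armi for 75 (57.8%), with a median of -0.25. Mael was lower than CG3893 for 75 members (62.2%) with a median of -0.17, and lower than HP1a for 63 (45.8%) with a median of -0.07. HP1a was lower than Piwi for 71 members (57.7%), with a median of -0.12. HP1a was lower than CG3893 for 68 members (60.7%), with a median of -0.09. CG3893 was lower than Piwi for 40 members (42%), with a median of -0.01, and Armi was lower than Piwi for 9 (45.7%), with a median of 0.06. For 73 other genes of at least 500 RPKM the medians of HP1a were lower still, -0.15 against Piwi and -0.16 against CG3893. Their medians for Mael were -0.12 against Piwi, -0.19 against Armi, -0.14 against CG3893 and 0.04 against HP1a. CG3893 and Armi against Piwi gave 0.02 and 0.07 in these genes. Since the siRNAs depleted their targets unequally, these differences rank libraries and not proteins.

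Both subunits had close medians. The median of the 60S genes minus that of the 40S genes was -0.03 in Mael, -0.03 in HP1a, -0.05 in CG3893, -0.01 in Piwi and -0.02 in Armi on the log2 scale, a contrast that a common scaling of a library leaves almost as it is. In HP1a 21 of the 43 60S genes (48.8%) and 9 of the 33 40S genes (27.3%) were past the size limit on the lower side. In Mael 25 (58.1%) and 20 (60.6%) were. The shares of all genes were 19.2% in HP1a and 12.9% in Mael. The 60S median in HP1a, -0.318, lay close to that limit of 0.32. The 60S genes made up between 61.0% and 61.1% of the members' summed RPKM in the knock-down libraries, and 61.3% in the control. The rank order of the members by level was also kept: Spearman's rho between libraries lay between 0.963 and 0.994 over the 15 pairs of libraries, across genes that are not independent replicates.

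**Figure D3:**
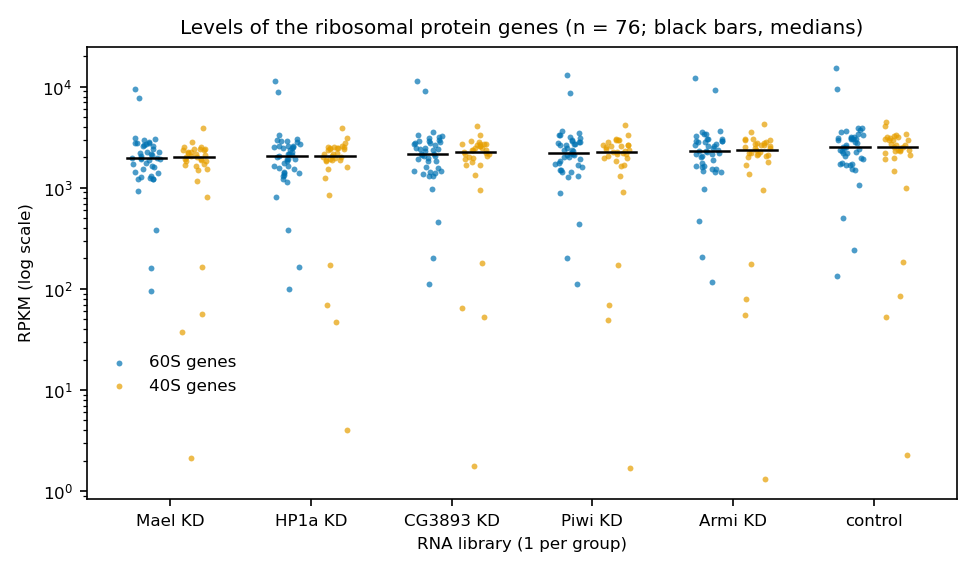
RPKM on a log scale (y axis) of each of the 76 members in the 6 RNA libraries (x axis), split into 60S and 40S genes. Black bars are medians. Most genes lie between 1000 and 5000 RPKM in every library, with RpL41 and RpL39 above. Below lie the lower genes of the paralog pairs, down to RpS10a, and, in the knock-downs, RpL22 (811 to 983 RPKM).

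By level, 65 members in each knock-down library and 67 in the control lay between 1000 and 5000 RPKM. The median member stood at 1982 RPKM in Mael, 2057 in HP1a, 2235 in CG3893, 2254 in Piwi and 2341 in Armi, against 2520 RPKM in the control. The median of all genes was between 23.6 and 24.2 RPKM. The most abundant was RpL41, the smallest ribosomal protein (2R, 20790939 to 20791452 in build dm3), followed by RpL39, a short protein that lines the exit tunnel of the 60S subunit (2R, 19949373 to 19949952). Next by mean came RpS27A (4115 RPKM), RpL36A (3528), RpS7 (3361) and RpL23 (3340). RpL41 and RpL39 together held between 11.0% (Mael) and 12.4% (control) of the members' RPKM. RPKM divides by transcript length, so values of such short transcripts depend on how length was treated, which is not given in the sources used here.

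RpL41 also had the lowest log2 change of the members in Mael and CG3893. It stood at 9518 RPKM in Mael, 11291 in HP1a, 11426 in CG3893, 13146 in Piwi and 12239 in Armi, against 15508 RPKM in the control. All 5 knock-down libraries were below the control, Mael the furthest, at 61.4% of control or a log2 change of -0.70. Its change minus that of the median member was -0.35 in Mael, a distance that a common scaling leaves as it is. RpL8, a protein of the 60S core beside the peptidyl transferase centre (3L, 2587449 to 2588996), was at 2143 RPKM in Mael, 2130 in HP1a, 2407 in CG3893, 2495 in Piwi and 2601 in Armi, against 3186 RPKM in the control. Its log2 changes were -0.57, -0.58, -0.40, -0.35 and -0.29 in the same order, and it was among the 4 lowest members in each knock-down but Mael. Both genes stayed below the control in all 5 knock-downs under each scaling tried.

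In the 40S subunit, RpS25, a protein of the head (3R, 7040941 to 7042037), lay far below the median member in Mael and CG3893. It was at 2084 RPKM in Mael, 2540 in HP1a, 2479 in CG3893, 2999 in Piwi and 3023 in Armi, against 3313 RPKM in the control. Its log2 change minus that of the median member was -0.31 in Mael and -0.22 in CG3893, and 0.04 in Piwi and -0.01 in Armi. RpS7, a protein of the 40S body (3R, 26032239 to 26034742), was among the 4 lowest in Piwi, at 3308 against 4060 RPKM in the control. Where the mRNA leaves the subunit, RpS26 was among the 4 lowest in Piwi (1829 against 2222 RPKM in the control) and RpS28b in Armi (2838 against 3374 RPKM in the control).

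Among the 75 members with a mean of 5 RPKM or more, RpL29 had the highest log2 change in HP1a, Piwi and Armi, and was among the 4 highest in Mael and CG3893. The gene encodes a 60S protein that yeast can grow without (2R, 17181274 to 17181909). It stood at 2604 RPKM in Mael, 2734 in HP1a, 2801 in CG3893, 3093 in Piwi and 3027 in Armi, against 2848 RPKM in the control. It was above the control in Piwi (108.6%) and Armi (106.3%) and below it in the other 3, and its change minus that of the median member lay between 0.18 and 0.30. With libraries scaled to the same sum its changes were 0.07 in Mael, 0.14 in HP1a and 0.07 in CG3893, where they were -0.13, -0.06 and -0.02 as deposited, so its direction in these 3 depends on the scaling. RpL30, which in yeast restrains the splicing of its own transcript (2L, 19008232 to 19009273), was at 2755 RPKM in Mael, 2514 in HP1a, 2937 in CG3893, 2659 in Piwi and 2924 in Armi, against 2950 RPKM in the control. It was at 99.1% of control in Armi and 99.6% in CG3893, and had the highest percentage of control in Mael, 93.4%. RpS29, RpS15Aa and RpS3 were next to RpL29 in Piwi, at between 95.0% and 95.6% of control, and RpL9 was among the 4 highest in Mael, at 87.8%.

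**Figure D4:**
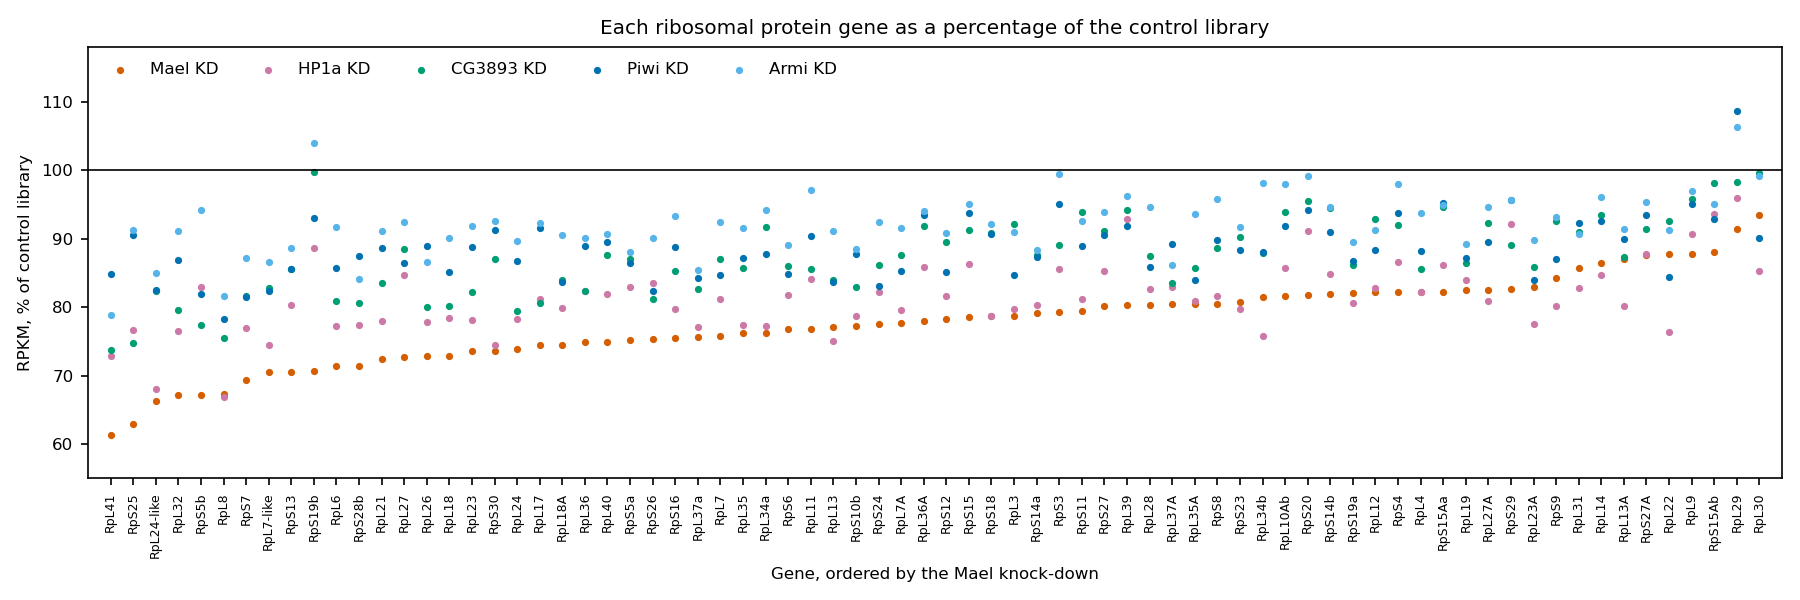
RPKM of 74 of the 75 members with a mean of at least 5 RPKM as a percentage of the control library (y axis), with genes ordered by their value in the Mael knock-down (x axis) and 1 point per knock-down. Values in Mael run from 61.4% for RpL41 to 93.4% for RpL30, and RpL29 in Piwi and Armi and RpS19b in Armi are the points above 100%.

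By position in the ribosome, the group medians lay near the median of all members. The 8 genes whose proteins ring the exit tunnel, among them RpL17, RpL26, RpL35 and RpL39, had a median log2 change of -0.30 in Mael and -0.33 in HP1a. Past the size limit on the lower side were 3 and 4 of them. Of all 76 members 45 and 30 were past it, and of all genes 12.9% and 19.2%. RpL39 was at 94.2% of control in CG3893 and 92.8% in HP1a. The 5 genes at the exit of the mRNA channel and the platform, RpS5a, RpS14a, RpS14b, RpS26 and RpS28b, had medians of -0.41 in Mael and -0.27 in HP1a. Past the limit were 4 (80%) and 1 (20%) of them, in HP1a near the share of all genes. At the entry of the channel, RpS3 was at 1999 RPKM in Mael and 2154 in HP1a, against 2519 RPKM in the control. RpS30, made as a fusion with a ubiquitin-like protein and found at the same site, was at 2380 RPKM in Mael and 2405 in HP1a, against 3232 RPKM in the control. The genes that carry ubiquitin in front of a ribosomal protein were RpS27A, at 87.7% of control in Mael and in HP1a, and RpL40, at 74.9% and 81.9%.

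Members known for signalling, RpS6, RpS12, RpL11 and RpL23, had medians of -0.38 in Mael and -0.29 in HP1a. Past the limit on the lower side were 4 in Mael (12.9% of all genes) and 1 in HP1a (19.2%). RpS6, the substrate of S6 kinase, was at 2399 RPKM in Mael, 2554 in HP1a, 2690 in CG3893, 2650 in Piwi and 2783 in Armi, against 3126 RPKM in the control, and its change minus that of the median member lay between -0.06 and 0.01. For RpS12, which in flies takes part in the elimination of slow-growing cells by their neighbours, that difference lay between -0.05 and 0.04. Tor, raptor and S6k, which encode members of the kinase pathway upstream of RpS6, had log2 changes between -0.09 and 0.11.

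RpL24-like and RpL7-like are named for ribosomal proteins, but their yeast counterparts assemble the 60S subunit and leave it. RpL24-like was at 161 RPKM in Mael, 166 in HP1a, 201 in CG3893, 201 in Piwi and 207 in Armi, against 244 RPKM in the control. RpL7-like was at 95.4 RPKM in Mael, 101 in HP1a, 112 in CG3893, 111 in Piwi and 117 in Armi, against 135 RPKM in the control. Their log2 change minus that of the median member was below 0 in all 5 knock-downs, between -0.25 and -0.08 for RpL24-like and between -0.14 and -0.07 for RpL7-like.

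Most paralog shares varied little between libraries. RpS14a and RpS14b, neighbours 224 bases apart on X, encode the same protein, and RpS14b made up between 34.3% (control) and 36.0% (CG3893) of their summed RPKM. Reads from such similar copies may be assigned to either gene, so this share is uncertain. RpL34a made up between 23.7% (Mael) and 25.8% (CG3893) of its pair with RpL34b, and RpS15Ab between 7.15% (Piwi) and 7.90% (HP1a) of its pair with RpS15Aa. RpL24-like made up between 11.0% (HP1a) and 12.9% (CG3893) of the sum with RpL24, and RpL7-like between 4.26% and 4.63% of the sum with RpL7. RpS15Ab stood at 164 RPKM in Mael, 174 in HP1a, 182 in CG3893, 173 in Piwi and 177 in Armi, against 186 RPKM in the control, and was among the 4 members with the highest changes in Mael, HP1a and CG3893.

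Several paralogs are known in flies mainly from germ cells, and here these were listed at 0 or at no more than 2.92% of the sum with their paralog. RpS5b, known from the ovarian germline, was at 56.7 RPKM in Mael, 70.1 in HP1a, 65.3 in CG3893, 69.1 in Piwi and 79.5 in Armi, against 84.4 RPKM in the control, which is between 2.44% and 2.92% of the sum with RpS5a. RpS19b was at 37.2 RPKM in Mael, 46.7 in HP1a, 52.6 in CG3893, 49.0 in Piwi and 54.8 in Armi, against 52.7 RPKM in the control, or between 1.45% (Mael) and 1.95% (Armi) of the sum with RpS19a. RpS10a, the kept member nearest the limit, with a mean of 2.20 RPKM, was at 2.11 RPKM in Mael, 4.00 in HP1a, 1.79 in CG3893, 1.70 in Piwi and 1.33 in Armi, against 2.26 RPKM in the control. HP1a alone was above the control, at 177% of it and a log2 change of 0.62, and RpS10a was the single member past the size limit on the higher side in any knock-down. If its whole locus of 528 bases were transcript, it would rest on 39.3 reads in HP1a and 40.5 in the control, so its ratio is loosely measured. Germline markers also had their highest sum in HP1a, 12.8 against 5.55 RPKM in the control, of which vas made up 6.38 and 1.56 RPKM. The other markers did not move alike. In HP1a aub (1.47 against 0.44 RPKM in the control), bam and osk were highest too. There nos and tej were lower than in the control, and rhi and AGO3 were highest in CG3893 and Mael. Whether RpS10a goes with any of these markers was not tested. RpS28a, just under the limit with a mean of 0.726 RPKM, was at 0.94 RPKM in Piwi, 1.37 in Mael and 2.04 in the control and listed at 0 in Armi, CG3893 and HP1a. RpL37b was listed at 0.43 RPKM in Armi and 0.14 in the control, RpL22-like at 0.06 RPKM in CG3893 alone, and RpL10Aa and RpS28-like at 0 in all 6 libraries.

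**Figure D5:**
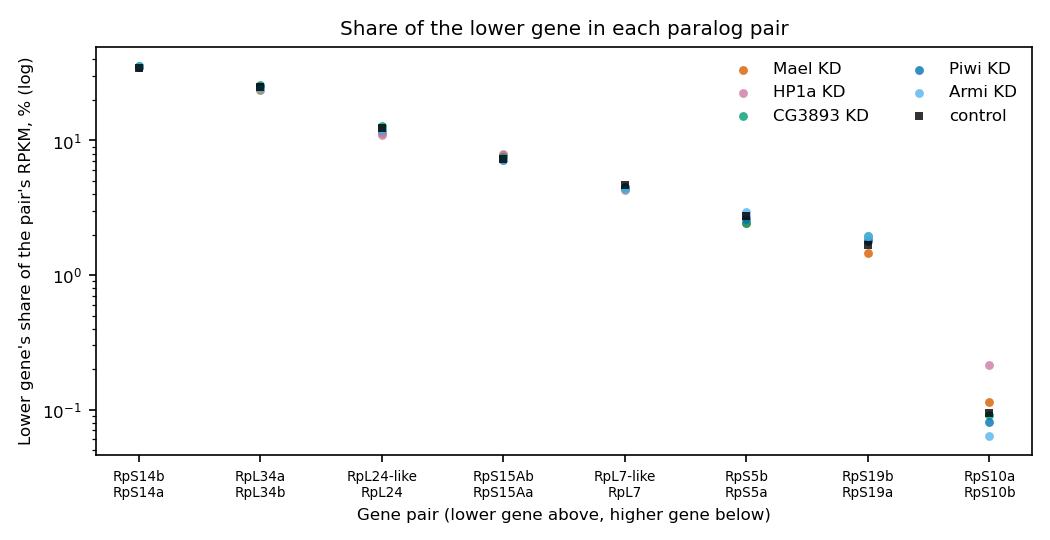
Share of the lower gene in the summed RPKM of each paralog pair, in percent on a log scale (y axis), for 8 pairs (x axis), with 1 point per library. The points of a pair nearly coincide for RpS14b (34.3% to 36.0%) and RpL34a (23.7% to 25.8%), and spread most for RpS10a (0.063% to 0.214%).

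In the genome the kept members lie on all 5 large arms, with 14 on 2L, 16 on 2R, 11 on 3L, 21 on 3R and 14 on X. Introns of ribosomal protein genes often hold small nucleolar RNA (snoRNA) genes, whose products guide the modification of ribosomal RNA. Here 25 members held 67 snoRNA genes inside their loci, RpS5a 14 and RpS7 7. The 25 hosts had a median log2 change of -0.32 in Mael and -0.29 in HP1a, and the other 51 members -0.39 and -0.32. Poly(A) selection leaves the snoRNAs themselves mostly outside the measurement. RpL26 (3L, 18892173 to 18893024) lies 664 bases from CG3893 (18893688 to 18894593), and in the CG3893 knock-down it was at 2458 RPKM against 3073 RPKM in the control, a log2 change of -0.32 where the median member had -0.20. In the Mael knock-down RpL26 had a log2 change of -0.46.

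Genes that work with ribosomal proteins were read from lists. The stalk genes RpLP0 and RpLP1, the stalk being where elongation factors bind, stood lower in all 5 knock-downs, with RpLP0 at 1386 RPKM in Mael and 1296 in HP1a, against 1799 RPKM in the control. RpLP2 differed: it was at 3275 RPKM in Mael, 2439 in HP1a, 3103 in CG3893, 2781 in Piwi and 2848 in Armi, against 3127 RPKM in the control, so Mael, where the members were lowest, held its highest value. RpS2 and RpS21, listed in the files under the names sop and oho23B, are outside the naming rule and had a median log2 change of -0.43 in Mael and -0.31 in HP1a.

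Ribosome assembly genes, most of them encoding nucleolar proteins, had lower medians than the ribosomal protein genes in Mael and HP1a. Of the 16 on the list, none of which is a member, 13 were past the size limit on the lower side in Mael, 14 in HP1a, 2 in CG3893, 6 in Piwi and 1 in Armi. The shares of all genes were 12.9%, 19.2%, 2.67%, 6.35% and 4.08%. On the higher side 0 of the 16 were past it, against 5.02% (Armi) to 12.3% (HP1a) of all genes. Most counts of the 16 in CG3893 and Armi are too small to read. The median log2 changes of the 16 were -0.48 in Mael, -0.59 in HP1a, -0.18 in CG3893, -0.29 in Piwi and -0.18 in Armi. Fib, the fibrillarin that methylates ribosomal RNA, was at 177 RPKM in Mael, 169 in HP1a, 240 in CG3893, 228 in Piwi and 249 in Armi, against 320 RPKM in the control, all 5 below it. CG7637 had a log2 change of -0.97 in Mael and -0.61 in HP1a. Nop60B, the pseudouridine synthase of ribosomal RNA, had -0.71 and -0.68, and nop5, a partner of fibrillarin, -0.57 and -0.80.

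Of 15 translation initiation genes 3 (20%) were past the size limit on the lower side in Mael and 4 (26.7%) in HP1a. Of all genes 12.9% and 19.2% were. The medians of the 15 genes were -0.15 and -0.12, nearer to 0 than the members' -0.36 and -0.30. The lowest was eIF6, which keeps free 60S subunits from joining, at 129 RPKM in Mael and 128 in HP1a, against 196 RPKM in the control, followed by eIF-2beta, at 248 and 251 against 373 RPKM. The gene past the limit on the higher side, eIF-4B, was low, at 3.42 RPKM in Mael and 4.33 in HP1a, against 1.42 RPKM in the control. Past that limit, against the same 12.9% and 19.2% of all genes, were 3 of 7 elongation and termination genes in Mael and 3 in HP1a. Their medians were -0.28 in Mael, -0.32 in HP1a, -0.08 in CG3893, -0.18 in Piwi and -0.07 in Armi, in HP1a and Piwi about those of the members. Ef1alpha48D, the most abundant, was at 6073 RPKM in Mael and 5922 in HP1a, against 6895 RPKM in the control. The 72 mitochondrial ribosomal protein genes had medians of -0.24 in Mael, -0.26 in HP1a, -0.10 in CG3893, -0.09 in Piwi and -0.06 in Armi. Past the size limit on the lower side were 21 of them in Mael and 29 in HP1a, against 12.9% and 19.2% of all genes.

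Of 7 genes of RNA polymerases I and III and their factors, 2 were past the size limit on the lower side in Mael and 3 in HP1a. Of all genes 12.9% and 19.2% were. Among the 7 was RpI1, the largest subunit of polymerase I, past it in both, at 38.1 and 32.1 against 48.2 RPKM in the control. Of 10 growth and ribosome stress genes, dm, the fly Myc gene, was past the limit on the lower side in Mael (31.7 RPKM) and Piwi (35.3 RPKM), against 48.7 RPKM in the control. Of all genes 12.9% and 6.35% were past it there. In HP1a, where the members were also low, dm was at 47.0 RPKM. Thor, which encodes a repressor of translation initiation, was the gene of this list past the limit in HP1a, at 11.9 against 19.4 RPKM in the control, and in Piwi it was past the limit on the higher side, at 25.1 RPKM. Xrp1 encodes a factor raised in cells with a reduced dose of a ribosomal protein gene. It ranged over 440 to 546 RPKM after knock-down, against 511 RPKM in the control.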

How the data were processed

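Poly(A) RNA libraries of 6 OSC cultures were used, 1 per group. Gene levels were deposited by the authors as RPKM, per the file headers. Build dm3, TopHat2 2.0.7, Bowtie2 2.0.0, Cufflinks 2.0.2 and cutadapt are listed, without their roles, per the submitters' processing notes. Annotation, strand setting and the handling of reads that match in several places were not stated in the sources used. Antisense and overlapping genes therefore cannot be told apart: 20 members overlap another gene, 5 of them (RpL3, RpL22, RpL24-like, RpS15Ab and RpS27A) with one of at least 5% of their own level. The Pol II data hold transposon entries and were not used here. Loci stand as deposited, and nothing says whether starts count from 0 or 1.

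Rows of one gene name were summed. Changes are log2((knock-down + 1)/(control + 1)) with a pseudocount of 1 RPKM, which understates changes of low genes; genes with a mean of 1 RPKM or more entered counts. With 1 library per group, fixed sizes (a ratio of 5 to 4, and 2-fold) replaced a test. Read totals were recovered from the transposon RPKM by a search for totals and lengths that make values whole (114 of 117 entries gave 1 length), a method tested on simulated data; they are a best fit, not a record. Computation used Python 3.11.15, pandas 2.3.3 and numpy 2.4.6. Names were matched to a RefSeq table of another release.

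Named genes are, per knock-down, the 4 lowest and 4 highest members with a mean of 5 RPKM or more, the 6 highest and lowest by level, paralog pairs, examples of role lists, and 2 to 4 of the largest changes of each other list; RpL26, RpLP1, Ef1alpha48D, Xrp1, Tor, raptor and S6k were named besides, after their values were seen. Single values of 1 member that the naming rule picks are not reported here; it stays in all counts and medians. Members and lists were chosen with earlier results of these data known. Alternatives were other pseudocounts, filters, scalings and the highest row per name; the comparisons with genes of like level and length were added after seeing the data.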

Additional observations from a re-analysis of the deposited data

How the results depend on the processing

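No paired analysis was possible because each group holds 1 library, and no library could be left out. A median was taken as moved past 0.1 log2 units and a count past 1.5 times. The median of the members stayed below 0 in all 5 knock-downs under every alternative. The 60S minus 40S medians moved by less than 0.1, but this is no check of them. A common scaling nearly cancels in that contrast, and it was only -0.05 to -0.01 as deposited. Each library was scaled to the same summed RPKM over genes with a locus of at least 400 bases. The medians were then -0.15 in Mael, -0.11 in HP1a and -0.081 in Piwi. Past the size limit on the lower side were 8 members in Mael, 2 in HP1a, 1 in CG3893, 0 in Piwi and 1 in Armi. The shares of all genes past it were 4.34%, 8.35%, 1.64%, 4.11% and 2.93%. With that sum taken without the genes of the naming rule the medians were -0.23 in Mael and -0.15 in HP1a. Ribosomal protein genes outside the rule were not taken out of it. The counts were 17, 2, 3, 0 and 1 in the same order, against 6.18%, 9.97%, 2.09%, 4.62% and 3.6% of all genes. Scaling to other genes of at least 500 RPKM, added after seeing the data, gave -0.15 in Mael, -0.065 in HP1a and -0.079 in Piwi. Its counts were 8, 1, 3, 0 and 1, against 4.25%, 6.96%, 1.92%, 4.08% and 3.58% of all genes. Centring on other genes of like level and locus length, also added, gave -0.038 in Mael, -0.016 in HP1a, -0.066 in CG3893 and -0.050 in Piwi. Its counts were 2, 0, 0, 0 and 1, against 2.08%, 5.07%, 1.18%, 3.09% and 2.65% of all genes. Centring on the median of all genes left 33 in Mael (9.1% of all genes), 7 in HP1a (13.1%), 5 in CG3893 (2.39%), 0 in Piwi (5.07%) and 1 in Armi (3.54%). A pseudocount of 0.1 RPKM or no filter gave 2 in Piwi, and a pseudocount of 5 RPKM or a mean of at least 10 RPKM gave 1 in Armi. On the higher side, HP1a had 0 with a pseudocount of 5 RPKM or a mean of at least 10 RPKM. Armi had 1 with no filter, RpL37b, at 0.43 against 0.14 RPKM in the control. Shares of all genes were not taken under these pseudocounts and filters. The members below the control numbered 46 in Mael (13.2% of all genes) and 44 in HP1a (22.7%), the fewest, after centring on like genes, and at least 59 under the other scalings, which put between 26.1% and 50% of all genes below it. Of 1480 values of 33 named genes under the alternatives, 1214 moved by less than 0.1 log2 units. Part of this was given in advance: filters leave a gene's own value as it was, and centring on all genes shifted it by less than 0.1. Of those past the size limit 0 changed sign, but this is no check. The largest scaling shift counted here, 0.24 in HP1a, is below that limit of 0.32, and a pseudocount cannot change a sign. Centring on like genes was not among the alternatives counted here. Why medians, counts and single values moved under the alternatives was not tested. Without replicate libraries the spread between cultures is unknown, which limits every difference of this size.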
